A study of Mus musculus with 6 samples.

Results

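The genes described here are 10 immune checkpoint and B7 costimulator genes, picked by gene symbol from the 33965 genes of the deposited expression table. Of these, 5 encode ligands (Cd274, Pdcd1lg2, Cd80, Cd86 and Vsir) and 5 encode receptors (Pdcd1, Ctla4, Havcr2, Lag3 and Tigit). All 10 were in the table, and 9 had enough counts for a test. The exception was Pdcd1lg2. RNA was sequenced from 6 whole tumors of MC38, a mouse colon carcinoma cell line, 3 from mice treated with PBS and 3 from mice treated with GB2. GB2 is a prodrug in which a disulfide bond joins MSA-2, an agonist of the innate immune adapter STING, to artesunate, used as an inhibitor of the macrophage receptor TREM2. The mice were female C57BL/6 bought at 6 weeks of age, and the tumor cells were inoculated under the skin of the flank. The GB2 dose stated for this model is 10 mg/kg intravenously, and the dose and collection time of the sequenced tumors are not stated separately. No knockout or transgene is named for either group. Nothing in the labels says whether the 3 tumors of a group came from separate cages or experiments, so the spread between them may be partly technical.

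Checkpoint receptors sit on T cells and other lymphocytes and restrain them when their ligands bind. PD-L1 (Cd274) and PD-L2 (Pdcd1lg2) bind PD-1 (Pdcd1), while CD80 and CD86 bind CD28, which activates T cells, and CTLA-4, which competes with CD28 for them. VISTA (Vsir) is a B7-related molecule of myeloid cells, TIM-3 (Havcr2) is found on exhausted T cells and on myeloid cells, LAG-3 binds MHC class II, and TIGIT binds nectin-like molecules. The study asked whether GB2 turns macrophages into cells that present antigen, with CD80 and CD86 as their markers. It also asked whether GB2 adds to blockade of PD-1. RNA levels of these genes in whole tumors relate to both questions but answer neither. The sequenced tumors include no group treated against PD-1, and the study read CD80 and CD86 as protein on macrophages.

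Among these genes Vsir and Cd86 were higher in every GB2 tumor, Lag3 was lower in every GB2 tumor, and the other members overlapped, with 0 members called by edgeR and 1, Vsir, by DESeq2. Vsir was at 7.69 ± 2.48 CPM (SD, n = 3) in GB2 tumors against 2.02 ± 0.472 CPM (SD, n = 3) in PBS tumors, and Cd86 at 0.985 ± 0.49 against 0.31 ± 0.189 CPM (SD, n = 3 each). CPM are counts scaled to the size of each library. Cd274, the most abundant of the 10, had nearly equal means of 29.5 and 30.2 CPM, and Lag3 was at 0.972 ± 0.143 CPM in GB2 and 1.56 ± 0.21 CPM in PBS tumors (SD, n = 3 each). Pdcd1, Ctla4 and Tigit were each at or under the detection limit in at least 1 tumor of each group.

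The libraries held between 64764405 and 83690056 estimated counts, where about 4 counts stand for 1 read pair. All 3 GB2 libraries exceeded all 3 PBS libraries. A detection limit of 3 read pairs, or 12 counts, corresponds to 0.141 to 0.203 CPM in these tumors. The first principal component, with 34% of the variance, set PBS tumor 1 apart. Among the 19602 genes tested by edgeR's quasi-likelihood test, 0 (0%) were called at an adjusted p under 0.05 and 2-fold or more, while 1360 had an unadjusted p under 0.05 and DESeq2 called 373 (1.17% of 31805). At limits of 0.05 on the unadjusted p and 2 on the fold, 3.74% of the genes were higher and 0.918% lower in GB2 tumors, and the groups did not overlap, with GB2 higher, in 8.61% of the genes and, with GB2 lower, in 6.68%.

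Against this background, 0 of the 9 tested members were called by edgeR. At the unadjusted limits, 2 were higher (Vsir and Cd86) and 0 were lower. The groups did not overlap in 3, Vsir and Cd86 with GB2 higher and Lag3 with GB2 lower. The median log2 fold change was 1.22 over the 4 tested ligands and 0.485 over the 5 receptors, beside -0.02 over all genes tested. The receptor median is the value of Havcr2. Pdcd1, Ctla4 and Tigit, with few counts, had standard errors of 1.32, 1.27 and 1.48.

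Promoter sequence is shown for Vsir, Cd80 and Cd274, as these ligands span the range from the largest to the smallest difference between groups. The windows of 300 bases run from 250 before to 50 after the gene start, are taken from RefSeq on the GRCm38.p6 build, and were found for 8 of the 10 members. They lie at chr10:60346601-60346900, chr16:38458683-38458982 and chr19:29367188-29367487, all on the plus strand. Capitals mark the motifs found on either strand.
Vsir: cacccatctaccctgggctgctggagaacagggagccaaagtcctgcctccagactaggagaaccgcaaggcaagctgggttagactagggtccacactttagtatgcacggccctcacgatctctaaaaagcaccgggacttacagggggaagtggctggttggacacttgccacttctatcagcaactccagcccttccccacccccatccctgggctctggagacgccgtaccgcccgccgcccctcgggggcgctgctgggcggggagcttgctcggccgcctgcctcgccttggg
Cd80: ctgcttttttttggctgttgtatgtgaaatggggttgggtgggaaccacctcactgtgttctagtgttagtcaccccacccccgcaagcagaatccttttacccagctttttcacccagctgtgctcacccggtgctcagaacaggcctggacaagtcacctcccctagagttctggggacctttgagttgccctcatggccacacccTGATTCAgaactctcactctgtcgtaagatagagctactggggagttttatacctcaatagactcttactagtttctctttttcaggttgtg
Cd274: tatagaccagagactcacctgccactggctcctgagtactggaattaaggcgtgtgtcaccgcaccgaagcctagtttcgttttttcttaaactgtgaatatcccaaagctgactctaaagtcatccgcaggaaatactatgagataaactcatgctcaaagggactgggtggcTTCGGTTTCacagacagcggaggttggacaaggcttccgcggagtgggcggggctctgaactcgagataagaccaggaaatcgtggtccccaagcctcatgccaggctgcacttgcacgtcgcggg
Among the motifs searched were GAAANNGAA, a pair of interferon regulatory factor half-sites present in 8.6% of all 32851 windows, GAGGAA, an ETS core read by PU.1 (28.3%), TGANTCA, the AP-1 element (7.8%), and the NF-kappaB element (4.5%). The Cd274 window held the interferon regulatory factor motif on the minus strand, at 76 bases before the start, and the Cd80 window held the AP-1 element at 42 bases before it. The Vsir window, with 63.7% G and C against a median of 52.7% over all windows, held none of the motifs named. Of the other windows, that of Ctla4 held the interferon regulatory factor motif, that of Havcr2 the AP-1 and ETS motifs, that of Pdcd1 the ETS motif at 2 positions, that of Pdcd1lg2 the ETS and NF-kappaB motifs, and that of Tigit none. A match is a description of letters and not evidence of binding.

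**Figure D1:**
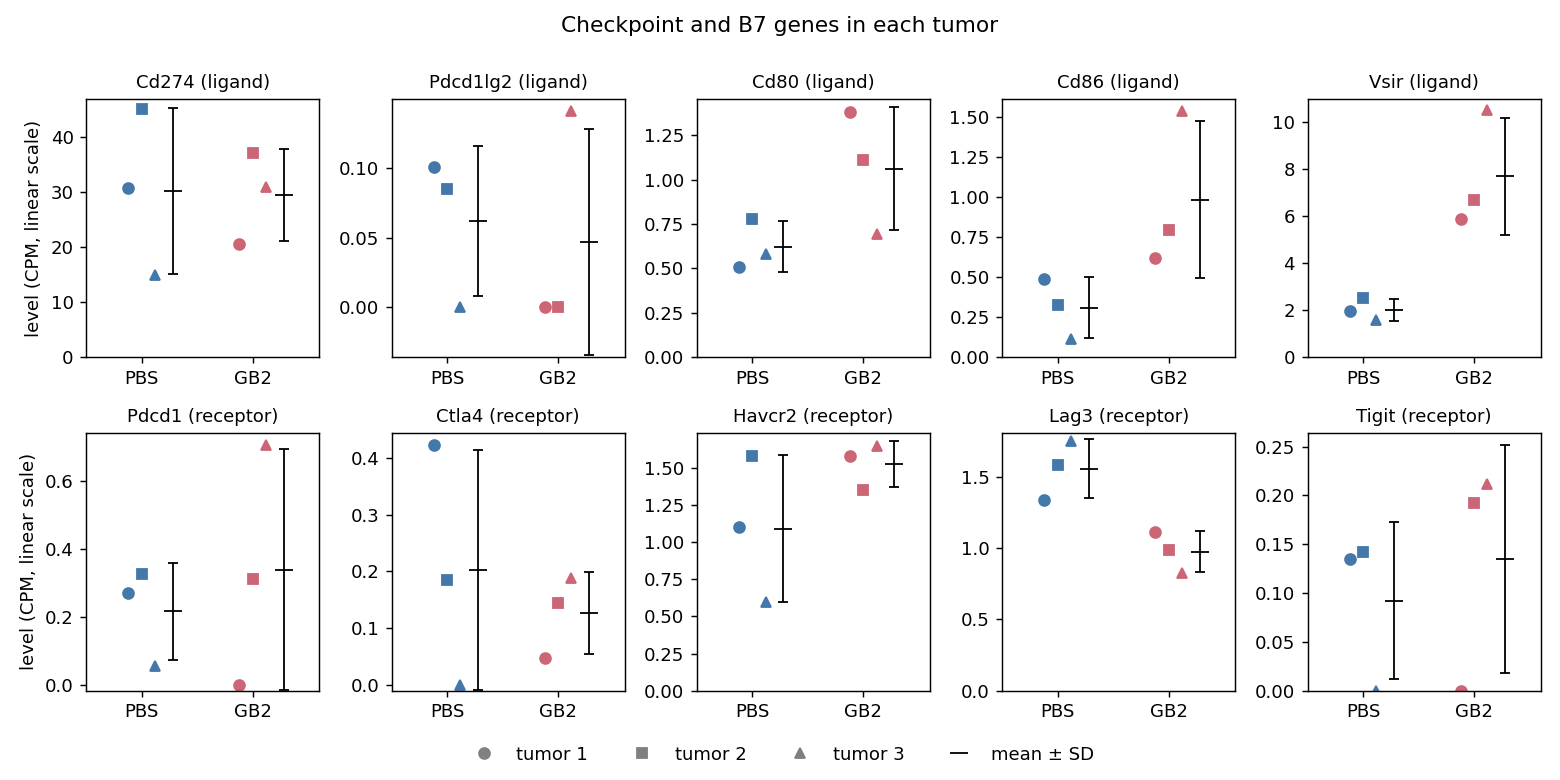
Level of each gene in CPM on a linear scale, 1 point per tumor, with the mean ± SD of each group as black bars. The 3 GB2 tumors lie above the 3 PBS tumors for Vsir and Cd86 and below them for Lag3, and the groups overlap in the other 7 panels. Where the SD is larger than the mean the bar runs below 0, which no level does.

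Cd274 (ENSMUSG00000016496, chromosome 19 from 29344855 to 29365495 on the positions of the deposited table) encodes PD-L1, which interferon-gamma induces on tumor and myeloid cells. Its level was 30.8, 45.1 and 14.9 CPM in PBS tumors 1, 2 and 3, and 20.5, 37.1 and 30.9 CPM in GB2 tumors 1, 2 and 3. The PBS tumors spanned 3.02-fold and the GB2 tumors 1.81-fold, so the whole GB2 range lay inside the PBS range. The log2 fold change of -0.04 (standard error 0.40) was far inside that spread (edgeR's quasi-likelihood test, adjusted p = 0.984). Its sign changed with the tumor left out, from -0.36 to 0.37, and in the 2 fits on FPKM, where it was 0.11 and 0.14. On the antisense strand lies Gm36043, with 23 to 421 counts against 1053 to 3175 for Cd274, and it is not stated whether the counting used strand.

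Vsir (ENSMUSG00000020101, chromosome 10 from 60182630 to 60208463) had the largest log2 fold change of the members. Its level was 1.98, 2.51 and 1.57 CPM in the PBS tumors and 5.87, 6.67 and 10.5 CPM in the GB2 tumors. The lowest GB2 tumor was thus above the highest PBS tumor. The log2 fold change was 1.93 (standard error 0.34), or 3.8-fold, and the gene ranked at place 56 of 19602 by p (unadjusted p = 5.9e-04, adjusted p = 0.19 by edgeR's quasi-likelihood test). DESeq2 called it, with an adjusted p of 3.2e-05 and a log2 fold change of 1.94. Without each tumor in turn the value stayed between 1.64 and 2.12. The gene lies inside Cdh23 on the other strand, whose counts of 0 to 28 were small beside the 111 to 894 of Vsir.

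Cd86 (ENSMUSG00000022901, chromosome 16 from 36424231 to 36486443) and Cd80 (ENSMUSG00000075122, chromosome 16 from 38275923 to 38316697) encode the costimulators of antigen-presenting cells. Cd86 was at 0.49, 0.326 and 0.113 CPM in the PBS tumors and at 0.619, 0.794 and 1.54 CPM in the GB2 tumors. Each GB2 tumor was above each PBS tumor, although PBS tumor 3, with 8 counts, was under the detection limit. Its log2 fold change of 1.67 (standard error 0.65) had an unadjusted p of 0.035 and an adjusted p of 0.676 in edgeR's quasi-likelihood test, and in DESeq2 an adjusted p of 0.345. The unadjusted p lay above 0.05 when PBS tumor 2 (0.074), PBS tumor 3 (0.067), GB2 tumor 2 (0.051) or GB2 tumor 3 (0.147) was left out of edgeR's fit.

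Cd80 was at 0.507, 0.781 and 0.58 CPM in the PBS tumors and at 1.38, 1.11 and 0.694 CPM in the GB2 tumors. The groups overlapped by 1 tumor, since GB2 tumor 3 lay below PBS tumor 2. The log2 fold change was 0.77 (standard error 0.43), and edgeR's quasi-likelihood test gave an adjusted p of 0.757. GB2 tumor 3 was the lowest GB2 tumor for Cd80 and the highest for Cd86. Summed, the pair took 0.998, 1.11 and 0.693 CPM in PBS tumors and 2, 1.9 and 2.24 CPM in GB2 tumors, without overlap.

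Pdcd1lg2 (ENSMUSG00000016498, chromosome 19 from 29388319 to 29448561) encodes PD-L2, which dendritic cells and macrophages carry, and lies 22.8 kb from Cd274 in the table. It had 6, 6 and 0 counts in the PBS tumors and 0, 0 and 12 counts in the GB2 tumors. No tumor was above the limit of 12 counts, so neither a fold change nor a test is given. The antisense gene A930007I19Rik, which overlaps its end, had 282 to 398 counts.

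**Figure D2:**
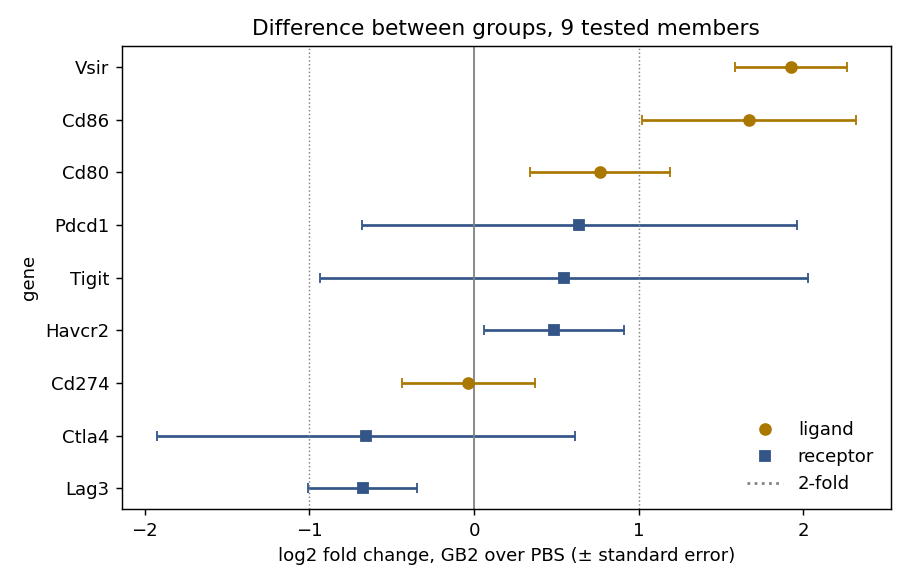
Log2 fold change of GB2 over PBS tumors for the 9 tested members, with its standard error from edgeR's fit as the bar. Vsir at 1.93 and Cd86 at 1.67 stand past the dotted 2-fold line, Cd274 sits at -0.04, and the bars of Pdcd1, Ctla4 and Tigit are the widest, with standard errors of 1.32, 1.27 and 1.48.

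Among the receptors, Lag3 and Havcr2 were measured above the detection limit in all 6 tumors. Lag3 (ENSMUSG00000030124, chromosome 6 from 124881324 to 124888668), an inhibitory receptor of activated T cells that NK and dendritic cells also carry, was at 1.34, 1.58 and 1.75 CPM in the PBS tumors and at 1.11, 0.986 and 0.823 CPM in the GB2 tumors. Each GB2 tumor was below each PBS tumor, and the spread within groups was small, with SDs of 0.21 and 0.143 CPM. The log2 fold change was -0.68 (standard error 0.33), under 2-fold and short of the limits (edgeR's quasi-likelihood test, unadjusted p = 0.078, adjusted p = 0.757). Leaving out each tumor gave -0.78 to -0.57.

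Havcr2 (ENSMUSG00000020399, chromosome 11 from 46345762 to 46372082) was at 1.1, 1.58 and 0.594 CPM in the PBS tumors and at 1.58, 1.35 and 1.65 CPM in the GB2 tumors. The GB2 tumors lay close together, at 1.53 ± 0.158 CPM (SD, n = 3), and PBS tumor 2 was among them. Its log2 fold change of 0.49 (standard error 0.42) reached an adjusted p of 0.81 by edgeR's quasi-likelihood test, and it ran from 0.19 to 0.86 without each tumor.

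Pdcd1 (ENSMUSG00000026285, chromosome 1 from 93966027 to 93980278), which encodes PD-1, was at 0.271, 0.326 and 0.0566 CPM in the PBS tumors and at 0, 0.313 and 0.706 CPM in the GB2 tumors. The 6 values stood for 16, 23, 4, 0, 26 and 60 counts, and GB2 tumors held both the lowest and the highest. The count of 0 in GB2 tumor 1 allows up to 0.143 CPM, for counting error only. The log2 fold change of 0.64 (standard error 1.32) reached an adjusted p of 0.911 by edgeR's quasi-likelihood test, and it was -0.47 without GB2 tumor 3.

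Ctla4 (ENSMUSG00000026011, chromosome 1 from 60926159 to 60954991), the CTLA-4 gene that regulatory T cells express, was at 0.423, 0.184 and 0 CPM in the PBS tumors and at 0.0476, 0.144 and 0.188 CPM in the GB2 tumors. Only 3 tumors were above the detection limit, and the groups overlapped (log2 fold change -0.66, standard error 1.27, adjusted p = 0.905 by edgeR's quasi-likelihood test). The value was 0.46 without PBS tumor 1, the highest tumor. The ribosomal protein pseudogene Rpl18-ps1 lies within Ctla4 on the same strand with 25 to 129 counts, so reads of the pair may have been divided between them.

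Tigit (ENSMUSG00000071552, chromosome 16 from 43469230 to 43484509) was at 0.135, 0.142 and 0 CPM in the PBS tumors and at 0, 0.192 and 0.212 CPM in the GB2 tumors. Only 2 tumors, both treated with GB2, were above the detection limit, which is lower in CPM in the larger GB2 libraries. PBS tumor 2, at 0.142 CPM, was under its own limit of 0.17 CPM but above the 0.141 CPM limit of GB2 tumor 3. The log2 fold change of 0.54 (standard error 1.48), at an adjusted p of 0.93 by edgeR's quasi-likelihood test, was -0.04 without PBS tumor 3. For Pdcd1, Ctla4 and Tigit the standard errors exceeded the log2 fold changes.

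Levels of different genes were ranked per length, as FPKM. Cd274 had the highest FPKM in all 6 tumors, at 7.75 ± 4 in PBS and 7.95 ± 2.12 in GB2 tumors (SD, n = 3 each). In PBS tumors Lag3 came next (0.687 ± 0.135 FPKM), then Vsir (0.373 ± 0.0945) and Havcr2 (0.369 ± 0.174), and the last pair did not differ beyond their spread. Cd80, Pdcd1, Tigit, Cd86 and Ctla4 followed with means from 0.153 to 0.0748 FPKM and ranges that overlapped, and Pdcd1lg2 was last at 0.0269. In GB2 tumors Vsir took the second place at 1.5 ± 0.503 FPKM, its lowest tumor (1.16) above the highest Havcr2 (0.597) and Lag3 (0.516) values. Havcr2 and Lag3 overlapped, as did Cd80 (0.278 FPKM) and Cd86 (0.262), with Ctla4 and Pdcd1lg2 again last.

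Cd274 took 92.3%, 93.7% and 89.3% of the summed ligand FPKM in the PBS tumors but 76.9%, 84.8% and 75.5% in GB2 tumors. Every GB2 tumor was below every PBS tumor in this share, while the Cd274 level itself overlapped. The sum includes Vsir, Cd80 and Cd86, whose mean FPKM was higher in GB2 tumors, so the lower share restates those values. The difference between ligands and receptors was then taken in each tumor as the median log2 CPM of the 4 tested ligands minus that of the 5 receptors. It was 1.2, 2.02 and 3.57 for the PBS tumors, against 5.28, 3.02 and 2.47 for the GB2 tumors. The receptor median fell on Pdcd1 in PBS tumor 3 and on Ctla4 in GB2 tumor 1, each with 4 counts, under the detection limit. The 2 largest values, 3.57 and 5.28, therefore depend on the prior count of 2. The means of 2.26 ± 1.2 and 3.59 ± 1.49 (SD, n = 3) differed by 1.33, less than the larger SD, and by 0.48 without GB2 tumor 1, 0.80 without PBS tumor 1 and 1.98 without PBS tumor 3. CPM are not divided by length, and the median can fall on genes of different length, so the size of these values is not a ratio of transcript numbers. The difference was 0.962 on log2(FPKM + 0.1), 1.06 with the mean in place of the median and 0.925 with Vsir left out. These values are described without a test.

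The ratios of single pairs were also taken on CPM, without division by length. The log2 ratio of Cd274 to its receptor gene Pdcd1 was 7.06 ± 0.4 in PBS and 7.26 ± 2.14 in GB2 tumors (SD, n = 3 each). That of Cd86 to Ctla4 was 0.2, 0.74 and 2.4 in PBS tumors and 3.12, 2.26 and 2.87 in GB2 tumors, and that of Cd80 to Ctla4 was 2.23 ± 2.15 and 2.91 ± 1.26 (SD, n = 3 each). GB2 tumor 2 lay below PBS tumor 3 in the ratio of Cd86 to Ctla4, but in PBS tumor 3 Cd86 had 8 counts and Ctla4 0, so that ratio is set by the prior count of 2 and whether the groups overlap cannot be read from it. The same holds for every ratio in a tumor where Pdcd1 or Ctla4 was under the detection limit. Pdcd1lg2 was at or under that limit in all tumors and has no ratio.

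In a whole tumor a lower or higher level can come from the number of cells of a type or from RNA per cell, and these cannot be told apart. Cell type markers were therefore read beside the members. The 12 T cell markers, among them Cd3d, Cd3e and Cd8a, summed to 4.4, 7.66 and 0.665 CPM in PBS tumors and to 1.16, 2.8 and 5.95 CPM in GB2 tumors. The tumors with the lowest sums, PBS 3 and GB2 1, were also lowest for Pdcd1, Ctla4 and Tigit together, at 0.0566 and 0.0476 CPM against 0.649 to 1.11 CPM in the other 4. In PBS tumor 3, 8 of the 12 T cell markers were at 0 and Cd3d, Cd3e and Cd3g were all at 0, and in GB2 tumor 1, 4 were at 0. Of the 10 tested T cell markers, 0 passed the unadjusted limits and 0 separated the groups, with a median log2 fold change of -0.42. The smallest p values belonged to Cd3e (log2 fold change -1.77), Trbc2 (-0.81), Cd8b1 (-1.66) and Cd8a (-0.61), with adjusted p from 0.792 to 0.905 in edgeR's quasi-likelihood test. Cd3e and Cd8b1 were under the detection limit in PBS tumor 3 and in GB2 tumors 1 and 2. Their standard errors were 1.32 and 1.65.

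**Figure D3:**
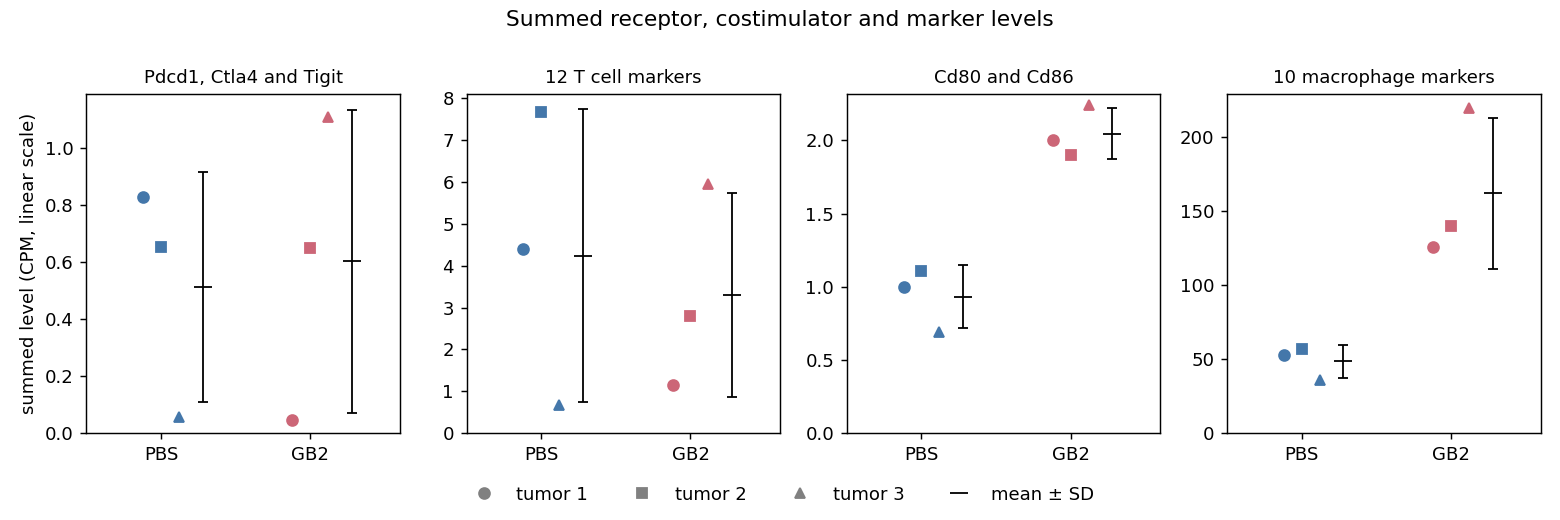
Summed CPM on a linear scale, 1 point per tumor with mean ± SD, for Pdcd1, Ctla4 and Tigit, for the T cell markers, for Cd80 and Cd86, and for the macrophage markers. PBS tumor 3 and GB2 tumor 1 are lowest in the first 2 panels, and all GB2 tumors lie above all PBS tumors in the last 2, at 126 to 220 against 36.2 to 56.7 CPM for macrophages.

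The 10 macrophage markers were above the detection limit in every tumor. Their sum was 52.7, 56.7 and 36.2 CPM in PBS tumors and 126, 140 and 220 CPM in GB2 tumors. All 10 separated the groups and 9 passed the unadjusted limits, with a median log2 fold change of 1.94. Those with the smallest p were Cd14, an endotoxin coreceptor (2.24), Adgre1, the F4/80 gene (2.55), Mrc1, a mannose receptor (1.95), and C1qc, a complement component (1.94), with adjusted p from 0.186 to 0.234 in edgeR's quasi-likelihood test. Markers of neutrophils, endothelium and fibroblasts were also higher in every GB2 tumor for all 4 tested genes of each list, with median log2 fold changes of 1.97, 1.41 and 1.59. Their part in the differences of the members was not tested.

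The members were then set against these markers. Relative to the mean log2 CPM of the macrophage markers, Vsir was at -0.99, -0.75 and -0.69 in PBS tumors and at -0.84, -0.75 and -0.74 in GB2 tumors. The difference of 0.04 was smaller than the SD of 0.161 among PBS tumors (exact two-sided permutation test, p = 0.8). For Cd86 the difference was -0.18, with means of -3.58 ± 0.629 and -3.76 ± 0.269 (SD, n = 3), also inside the spread (exact permutation test, p = 0.7). With Ptprc, the CD45 gene of leukocytes, in place of the macrophage markers, the differences were 0.62 for Vsir and 0.40 for Cd86, and on log2(FPKM + 0.1) against the macrophage markers that of Cd86 was -0.82, so both near-zero values depended on the reference or scale. Cd274 went from 2.96 ± 0.435 to 1.17 ± 0.488 relative to the same markers, a difference of -1.79 with no overlap between groups (exact permutation test, p = 0.1). Havcr2 differed by -1.28, from -1.77 ± 0.326 to -3.05 ± 0.343, likewise without overlap (exact permutation test, p = 0.1), and Cd80 by -1.14 with overlap (exact permutation test, p = 0.2). The smallest p that 3 tumors against 3 allow is 0.1, so none of these could pass 0.05. Cd274, Havcr2 and Cd80 themselves overlapped between groups (log2 fold changes -0.04, 0.49 and 0.77), while all 10 markers were higher in every GB2 tumor. Their lower relative values thus restate the higher markers, and the level per macrophage was not tested.

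**Figure D4:**
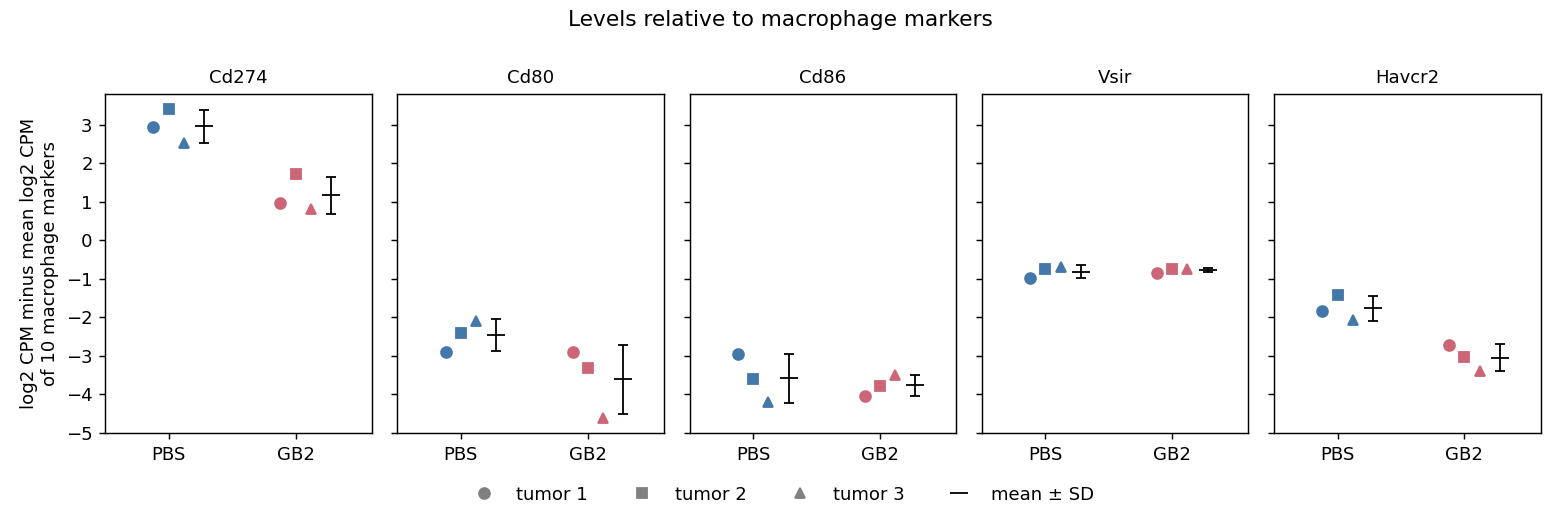
Log2 CPM of 5 genes minus the mean log2 CPM of 10 macrophage markers, 1 point per tumor with mean ± SD. Vsir stays near -0.8 in both groups and Cd86 near -3.6 to -3.8, whereas all GB2 tumors lie below all PBS tumors for Cd274 and Havcr2. The markers themselves were higher in every GB2 tumor, and the levels of Cd274 and Havcr2 overlapped.

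Relative to the 10 T cell markers that were tested, no receptor separated the groups. The differences were 0.03 for Pdcd1, 0.20 for Ctla4, 0.74 for Havcr2, -0.50 for Lag3 and 0.48 for Tigit, with exact two-sided permutation p from 0.5 to 0.9 and SDs of 0.63 to 2.13 within groups. In PBS tumor 3 and GB2 tumor 1, 8 and 4 of the 12 markers were at 0, and Pdcd1, Ctla4 and Tigit had 4 counts or fewer. The values of these 2 tumors depend on the prior count, so the 5 differences cannot show whether a receptor changed relative to T cells. Lag3 did not follow the T cell markers across tumors. In PBS tumor 3, where 8 of the 12 markers were at 0, Lag3 had its highest level, 1.75 CPM. Havcr2 had its lowest level there, 0.594 CPM, but was at 1.58 CPM in GB2 tumor 1, where 4 markers were at 0. The log2 distance to the markers in PBS tumor 3 depends on the prior count and is not given. The difference of Havcr2 ran from 0.09 to 1.49 without each tumor in turn. The differences of Pdcd1, Ctla4, Havcr2 and Tigit changed sign when the leukocyte gene Ptprc replaced the T cell markers, and that of Lag3 was -1.94. Ptprc was at 5.06, 4.85 and 1.54 CPM in PBS tumors and at 5.72, 7.08 and 13.4 CPM in GB2 tumors.

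The tested genes with the most similar pattern over the 6 tumors were ranked by the root mean square difference of centred log2 CPM. For Cd274 they were Gbp11, a guanylate-binding protein gene (0.138), 9630013K17Rik (0.161) and Acat3 (0.198). For Cd86 they were Cd300c2 (0.195), Ly6e (0.195) and C1qa (0.209), the last a macrophage marker. For Havcr2 they were Car7 (0.107), Gpc4 (0.129) and Gm42998 (0.137), and for Pdcd1 they were Rdh16f2 (0.439), Tigit (0.571) and Plb1 (0.635). The differences were larger for Pdcd1 than for the others, and 2 of its 6 values were under 5 counts. Gm42998 was under the detection limit in PBS tumors 1 and 3, at 0.135 and 0.0849 CPM. These genes are the nearest of 19602 over only 6 values, and a relation to the member was not tested.

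The remaining genes of the pathway were read as fixed lists. Over all genes tested, 3.74% passed the unadjusted limits with GB2 higher and 0.918% with GB2 lower. The groups did not overlap in 8.61% with GB2 higher and in 6.68% with GB2 lower. Interferon-gamma acts through JAK1, JAK2 and IRF1 on the Cd274 gene, and CMTM6 and CMTM4 keep the protein at the cell surface. Of the 10 tested genes of this axis, 0 passed the unadjusted limits and 2 separated the groups with GB2 higher, Jak2 (log2 fold change 0.10) and Cmtm4 (0.31), with a median of 0.29. Jak1 had a log2 fold change of 0.36, with adjusted p of 0.757 for Cmtm4 and 0.771 for Jak1 in edgeR's quasi-likelihood test. Irf1 was at 42.7, 51.4 and 11.2 CPM in PBS and at 21.1, 35 and 65.4 CPM in GB2 tumors, so that PBS tumor 3 and GB2 tumor 1, the lowest of their groups for Cd274, were the lowest for Irf1 too. Ifng itself was under 0.3 CPM in every tumor and was not tested.

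Of the other B7 and CD28 family genes, 7 of 8 were in the table and 5 were tested, of which 0 passed the unadjusted limits and 0 separated the groups (median 0.42). Cd276, the B7-H3 gene, was at 29.8 to 55.1 CPM in PBS and 38.1 to 46.8 CPM in GB2 tumors (log2 fold change 0.13). The smallest p belonged to Tnfrsf14, the HVEM gene (0.80), followed by Icosl, the ligand gene of ICOS (0.42), and Btla (0.50). Cd28 and Icos, the T cell receptors for CD80, CD86 and ICOS ligand, were at or under 0.235 CPM in every tumor.

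Among 10 tested further ligands of the receptors, 2 passed the unadjusted limits with GB2 higher and 0 with GB2 lower. They were Selplg, an adhesion ligand that also binds VISTA (log2 fold change 1.6, adjusted p = 0.38), and Lgals9, the galectin that binds TIM-3, at 20.6, 55.9 and 56.5 CPM in PBS and 81.3, 92.9 and 92.5 CPM in GB2 tumors (1.0, adjusted p = 0.625, both edgeR's quasi-likelihood test). Fgl1, a soluble ligand of LAG-3, was at 3.62, 5.38 and 5.97 CPM in PBS and 0.0953, 2.74 and 2.14 CPM in GB2 tumors. Each GB2 tumor was below each PBS tumor, as in 6.68% of all genes tested (-1.59, adjusted p = 0.757 by edgeR's quasi-likelihood test). Its value in GB2 tumor 1 was under the detection limit of 0.143 CPM. Lgals3, a galectin that also binds LAG-3, had a log2 fold change of 0.63 with overlapping groups (unadjusted p = 0.077 by the same edgeR test). Pvr, Nectin2 and Nectin3, which TIGIT and its relatives bind, had log2 fold changes from -0.11 to 0.04. The list median was -0.01.

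Of the other inhibitory and nectin-binding receptors, 8 of 10 were tested, 3 passed the unadjusted limits with GB2 higher, and 5 separated the groups, with a list median of 0.92. The 3 were Lair1, a collagen receptor of leukocytes (log2 fold change 2.04), Cd200r1, an inhibitory receptor of myeloid cells (1.73), and Cd244a (1.31), with adjusted p from 0.234 to 0.705 in edgeR's quasi-likelihood test. Sirpa, the macrophage receptor for CD47, had a log2 fold change of 0.45 and Cd47 one of -0.39. Pvrig had fewer than 12 counts in every tumor.

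In the list of T cell dysfunction genes, 2 of 9 passed the unadjusted limits with GB2 higher and 1 with GB2 lower, around a list median of 0.33. Entpd1, the CD39 ectonucleotidase gene that macrophages and endothelium also express, was at 1.84, 1.7 and 1.99 CPM in PBS and 6.45, 5.66 and 7.56 CPM in GB2 tumors (log2 fold change 1.83, adjusted p = 0.186), and Prdm1 had 1.29 (0.612). Nr4a2, an orphan nuclear receptor gene induced by receptor signals, had -1.08 (0.621), and Nr4a1, at -0.63 (0.446), also lay lower in every GB2 tumor (adjusted p in brackets by edgeR's quasi-likelihood test). Tox, a regulator of exhausted T cells, was at 0 to 0.203 CPM in PBS and 0.202 to 0.529 CPM in GB2 tumors. Every PBS tumor was at or under its detection limit for Tox, and the groups overlapped (unadjusted p = 0.208 by edgeR's quasi-likelihood test).

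Of the proximal T cell receptor and PD-1 signaling genes, 8 of 9 were tested and 2 passed the unadjusted limits with GB2 higher. These were Vav1 (log2 fold change 2.03) and Lcp2 (1.49), which myeloid cells express as well. Lck (0.58) and Zap70 (-0.34), the kinases of the T cell receptor, had overlapping groups, and Ptpn6, the SHP-1 phosphatase gene, was lower in each GB2 tumor at -0.22 (adjusted p = 0.781 by edgeR's quasi-likelihood test). The list median was 0.09.

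Of the remaining cell type lists, regulatory T cell (5 of 6 tested, median log2 fold change 0.49), NK and cytotoxic (5 of 7, 1.2) and B cell markers (3 of 5, -0.10) had 0 genes past the unadjusted limits and 0 without overlap. Foxp3 was at 0.423, 0.128 and 0.226 CPM in PBS and 0.286, 0.325 and 0.612 CPM in GB2 tumors. The NK marker Ncr1, the regulatory T cell marker Ccr8, the B cell marker Ms4a1 and the dendritic cell markers Flt3, Xcr1 and Siglech had fewer than 12 counts in every tumor, and the neutrophil marker Ly6g had 0. Of 8 tested dendritic cell markers, 1 passed the unadjusted limits, Itgax, the CD11c gene that macrophages also carry (1.79), and the list median was 0.68. Among the tumor epithelium markers, Epcam was at 0.17 to 0.457 CPM in PBS and 0.762 to 1.01 CPM in GB2 tumors (1.64), and Krt8, Krt18 and Cdh1 overlapped, so the defining epithelial markers were low in all of these carcinoma samples.

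**Figure D5:**
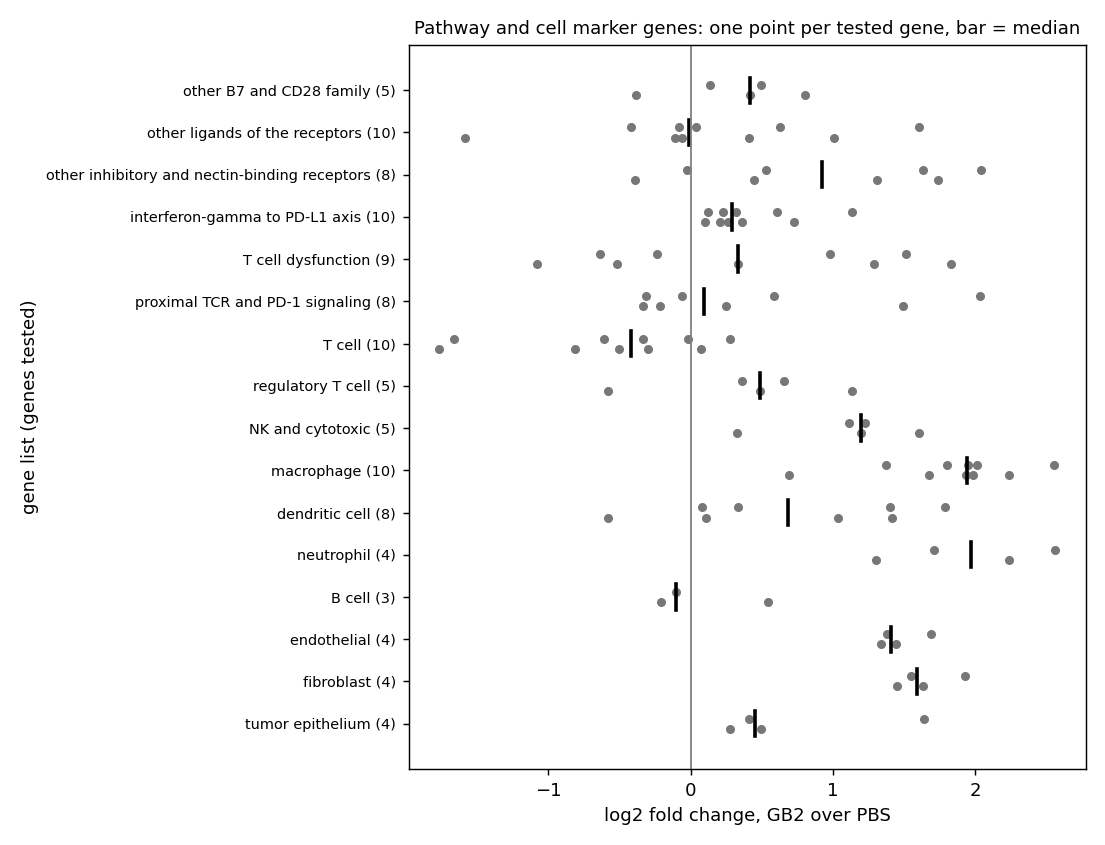
Log2 fold change of GB2 over PBS tumors for each tested gene of the pathway and marker lists, with the list median as a black bar. The medians of the macrophage, neutrophil, fibroblast and endothelial lists lie between 1.41 and 1.97, that of the T cell list at -0.42 and that of the interferon-gamma list at 0.29.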

How the data were processed

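RNA of 6 tumors was sequenced as poly-A selected, strand-marking paired-end libraries. For each gene and tumor, estimated counts and FPKM were deposited. The submitters' processing notes name cutadapt 1.9, HISAT2 2.2.1 and StringTie 2.1.6, DESeq2, edgeR and the mm10 build, with no role or order. Only 1.86% of 31999 gene IDs shared with a GRCm38 annotation had the same start and end, so positions are those of the table, on a build that could not be settled. The deposited estimated counts are whole numbers that pile up at multiples of 4, so intervals and limits take 4 counts as 1 read pair and cover counting error only. The deposited FPKM values are divided by transcript length and library total, by the authors. No per-sample column was left out.

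Genes passing filterByExpr (minimum count 10) were scaled by TMM and tested with glmQLFit and glmQLFTest of edgeR 4.0.16 in R 4.3.3, with Benjamini-Hochberg adjustment over all genes tested. Calls needed a change of 2-fold or more at an adjusted p under 0.05, the limits of the study's methods. Standard errors come from the test statistic. Log2 CPM had a prior count of 2. Alternatives were DESeq2 1.42.0, limma 3.58.1 on FPKM, other filters and scaling, a replicate block and leaving out each tumor. Single values were compared by exact two-sided permutation of the 6 tumors. The 10 comparisons with markers are not adjusted, since no p of this size can pass. The scripts were tested on simulated counts.

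The members and the gene lists were chosen with earlier results of these data known. Named genes are the members, up to 4 genes with the smallest p per list and genes of a list under 3 read pairs in every tumor, the 3 nearest genes in pattern for Cd274, Cd86, Havcr2 and Pdcd1, and genes overlapping a member. Other list genes were named for their role after their values were seen. The labels give no batch. Some genes of the lists are counted but not reported here by name.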

Additional observations from a re-analysis of the deposited data

How the results depend on the processing

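No member was called by edgeR or limma under any setting run, and DESeq2 called 1, Vsir. DESeq2 called 373 genes where edgeR called 0. Genes lower in GB2 tumors at the unadjusted limits numbered 180, but 382 in DESeq2, 338 with no filter, 117 with a stricter filter of 40 counts, 36 in limma on log2(FPKM + 1) and 123 to 548 without each tumor (548 without PBS tumor 3, 310 without PBS tumor 2). The 733 higher genes became 95 in limma on log2(FPKM + 1), where a pseudocount of 1 shrinks low genes. Of the 2 members past the unadjusted limits, 0 remained on that scale and 1 to 2 without each tumor. The tumor numbers did not pair the tumors, as deviations of same-numbered tumors correlated at 0.03, 0.15 and -0.24. With the replicate block 1 member passed the unadjusted limits, and the log2 fold changes of Cd274 and Pdcd1 were 0.052 and -0.13, the opposite sign. Cd274 was also reversed in limma on FPKM, at 0.11 with a pseudocount of 1 and 0.14 with 0.1. Without each tumor, Cd274 ran from -0.36 to 0.37, Ctla4 from -1.24 to 0.46, Pdcd1 from -0.47 to 1.22 and Tigit from -0.037 to 1.125.

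With Ptprc as the reference, the differences were -1.41 for Pdcd1, -1.24 for Ctla4 and -0.96 for Tigit, each opposite to the T cell markers. That of Cd86 was 0.40, opposite to the macrophage markers. Those of Vsir (0.62), Lag3 (-1.94), Cd274 (-1.21) and Cd80 (-0.56) kept the direction found with the marker lists. Havcr2 was at -0.70, opposite to the T cell markers (0.74) but in the same direction as the macrophage markers (-1.28). On log2(FPKM + 0.1), Vsir over macrophage markers was -0.085 and Cd86 -0.82. Without each tumor, the differences from T cell markers ran from -0.45 to 0.82 for Pdcd1, -0.29 to 0.75 for Ctla4, -1.29 to 0.71 for Lag3 and -0.065 to 0.89 for Tigit, and those from macrophage markers from -0.49 to 0.14 for Cd86 and -0.053 to 0.098 for Vsir. The cause was not tested. Counts divided by 4, chosen after seeing the data, dropped Pdcd1, Ctla4 and Tigit from the test. These 3 genes and Pdcd1lg2 had few counts.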
